A study of Geissois pruinosa and Geissois racemosa with 6 samples.

Results

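Of the 54969 contigs on which leaf RNA of 2 Geissois species was counted, 207 (0.377%) were abundant in every G. racemosa plant and at least 4 times lower in 2 of the 3 G. pruinosa plants. They were chosen by their measured levels in CPM (the counts of a contig per 1000000 counts of its library). A contig entered if it had at least 10 CPM in each of the 3 G. racemosa libraries and a mean under 1000 CPM over the 6 libraries. Its lowest G. racemosa level also had to be at least 4 times the higher level of pruinosa plants 1 and 2. The first 2 conditions were met by 10356 contigs, called eligible below, of which the 207 made up 1.999%. Pruinosa plant 3 did not enter the ratio, and its values are given beside it. Levels in the other 5 libraries are therefore a description of the choice and were not tested for a species difference of the group.

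Leaves were taken from wild plants in New Caledonia, 3 of Geissois pruinosa, labelled a nickel hyperaccumulator, and 3 of Geissois racemosa, labelled as not accumulating nickel. No plant received a treatment, and the labels give no age. The G. pruinosa plants grew at N'go, Pont des Japonnais and Col de Plum in Mont-Dore (plants 1, 2 and 3) and were collected on 11 March. The G. racemosa plants grew at Mont Mou in Paita (plant 1), at Sarramea (plant 2) and at Col Amieu in Sarramea (plant 3) and were collected on 11 June (plant 1) and 12 June of the same year. Per the labels the habitats were serpentine maquis and rainforest on limestone, and each library held the leaf RNA of a single plant. Species, site, habitat and month changed together, so that their effects cannot be told apart.

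Hyperaccumulators take up metals from the soil and store them in their shoots, mostly in leaf cells, at concentrations that would poison other plants. Serpentine soils are rich in nickel and poor in calcium and other nutrients, and many nickel hyperaccumulators grow on them. Comparisons with a relative that keeps nickel out of its leaves are used to look for transcripts that go with the trait, in either direction. A transcript lower in the hyperaccumulator can belong to any part of leaf physiology, and the contigs here carry only numbers. No gene name, length, sequence or protein was at hand for them, so the leaf origin could not be checked by marker genes, and no role is given to a contig. A contig is a piece of assembled transcript sequence and need not be a whole gene. Fewer cells of a type and less RNA per cell cannot be told apart in leaf RNA.

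Libraries held between 23661301 counts (racemosa plant 1) and 64908952 counts (racemosa plant 2). The 207 contigs were well counted in G. racemosa, with at least 237 counts each in racemosa plant 1, the smallest library. In pruinosa plant 1 there were 4 of them with 0 counts, which allows a level of up to 0.0633 CPM, the value of 3 counts. Pruinosa plants 2 and 3 stood apart. Only 2 of the 54969 contigs had 0 counts in pruinosa plant 2, against 3134 to 8727 in each of the other 5 libraries. Over the 207 contigs, the level of pruinosa plant 3 was never below 0.296 of that of racemosa plant 1, whereas the lowest ratios of pruinosa plants 1 and 2 to the same library were 0 and 0.00177. Over the 10149 other eligible contigs the lowest ratio of these levels, pruinosa plant 3 to racemosa plant 1, was 0.277. Whether reads of racemosa plant 1 are included in the counts of pruinosa plant 3 was not tested, and every value of pruinosa plant 3 below is subject to this limit, fold changes from all 6 libraries included. Fold changes and calls of the 207 as a group are given with and without pruinosa plant 3, and those of single contigs where stated.

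**Figure D1:**
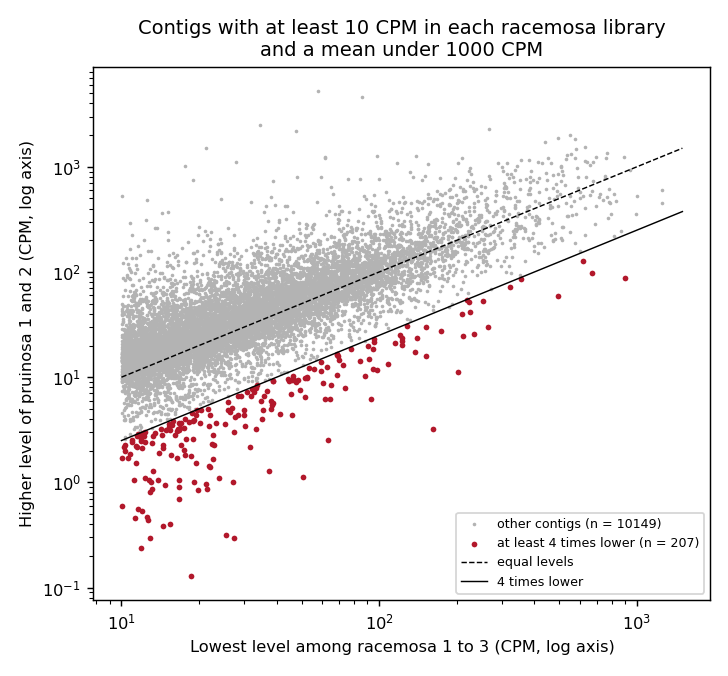
The 10356 eligible contigs, with the lowest level among the 3 G. racemosa libraries on the horizontal axis and the higher level of pruinosa plants 1 and 2 on the vertical axis (CPM, log axes). The 207 chosen contigs (red) lie on or under the solid line, which marks a level 4 times lower, and reach down from it to a ratio of 144.

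The median level of the 207 contigs was 3.02 CPM in pruinosa plant 1 and 3.35 CPM in pruinosa plant 2. It was 36.2, 44.4 and 31.2 CPM in racemosa plants 1, 2 and 3. In pruinosa plant 3 the median was 18.4 CPM, between the other plants of its species and G. racemosa. Over all eligible contigs the library medians lay between 30.2 and 39.4 CPM, so in G. racemosa the group sat near the middle of the contigs it was drawn from. Together the 207 contigs took 0.160% of the counts of pruinosa plant 1 (95% exact binomial interval 0.159 to 0.161) and 0.177% of those of plant 2 (0.176 to 0.178). They took 0.852% of pruinosa plant 3 (0.850 to 0.855). In G. racemosa they took 1.71% of plant 1 (1.70 to 1.71), 2.14% of plant 2 (2.13 to 2.14) and 1.55% of plant 3 (1.546 to 1.553). These intervals cover counting error only.

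**Figure D2:**
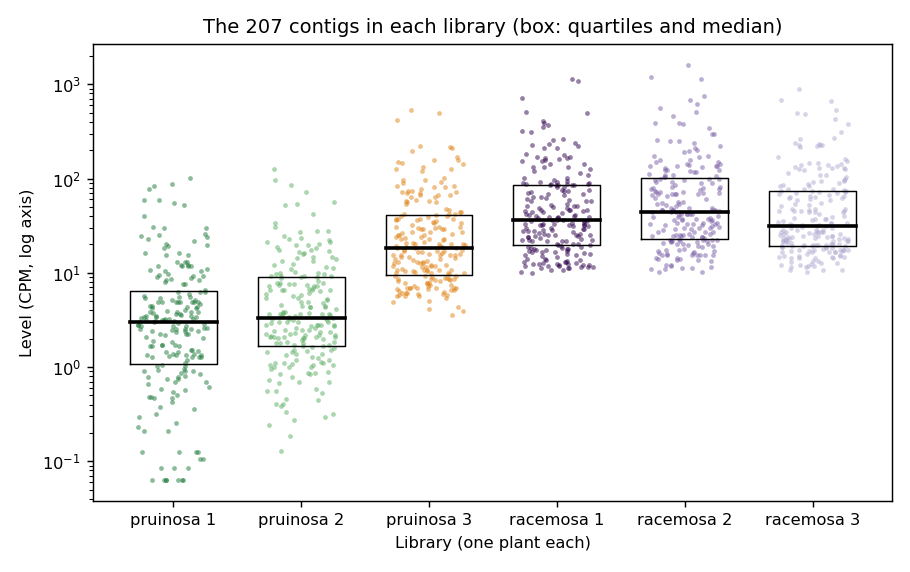
Level of each of the 207 contigs in each library (CPM, log axis), 1 point per contig, with the median (thick line) and quartiles (box); 0 counts are drawn at the level of 3 counts. The boxes of pruinosa 1 and 2 lie below 10 CPM, those of the 3 G. racemosa plants lie above it, and pruinosa 3, with a median of 18.4 CPM, lies between.

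The size of the difference varied widely within the group. The ratio of the lowest G. racemosa level to the higher level of pruinosa plants 1 and 2 had a median of 5.83, quartiles of 4.70 and 9.57 and a maximum of 144, against a median of 0.839 over all eligible contigs. A ratio from 4 to 8 was found for 139 of the 207, from 8 to 16 for 41 and of 16 or more for 27. In 24 contigs both pruinosa plants 1 and 2 were under 1 CPM, in 31 one of them was, and in 152 both had 1 CPM or more. The 207 thus were mostly contigs that these plants also expressed at a measurable level. In 49 contigs one of these plants reached 10 CPM or more, with a median of 153 CPM over the G. racemosa plants. By abundance, the choice took 2.02% of the eligible contigs with a mean of 10 to 30 CPM in G. racemosa, 1.83% of those from 30 to 100 CPM, 2.03% of those from 100 to 300 CPM and 3.93% (13 of 331) of those at 300 CPM or more.

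A few abundant contigs carried much of the signal, as the 10 highest held 33.1% of the summed G. racemosa level of the group. The highest of them was Gpru_v1_contig_1604, with 1143, 1613 and 902 CPM in racemosa plants 1, 2 and 3, a mean of 1219 ± 362 (SD, n = 3 plants). In pruinosa plants 1, 2 and 3 it stood at 87.0, 55.8 and 538 CPM. Every G. racemosa plant was above every G. pruinosa plant, and pruinosa plant 3 was several times above the other plants of its species. The fitted log2 fold change (G. pruinosa minus G. racemosa) was -2.46 ± 0.88 (standard error; edgeR adjusted p = 0.201), and without pruinosa plant 3 it was -4.16 ± 0.54 (standard error; edgeR adjusted p = 0.0205). The fit without pruinosa plant 3 rests on the libraries of the choice and restates it.

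Gpru_v1_contig_1759 had 1085, 683 and 668 CPM in the G. racemosa plants against 78.4, 97.3 and 491 CPM in the G. pruinosa plants, in the order of their numbers. For Gpru_v1_contig_1799 the values were 714, 618 and 688 CPM in G. racemosa and 101, 127 and 418 CPM in G. pruinosa. Gpru_v1_contig_15598 had 494, 556 and 498 CPM in G. racemosa and 59.2, 34.05 and 221 CPM in G. pruinosa. These 3 contigs were even among the G. racemosa plants, with the highest plant at most 1.63 times the lowest, and did not overlap between the species.

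The other 2 of the 6 most abundant contigs owed their mean to a single plant. Gpru_v1_contig_12551 reached 1139 CPM in racemosa plant 2, against 257 CPM in plant 1 and 138 CPM in plant 3. Pruinosa plants 1 and 2 had 15.3 and 17.3 CPM of it, and pruinosa plant 3 had 97.7 CPM. Gpru_v1_contig_854 likewise had 1195 CPM in racemosa plant 2 and 354 and 481 CPM in plants 1 and 3, with 83.6, 85.9 and 158 CPM in the G. pruinosa plants. The 3 libraries of each species remained apart in both contigs. With all 6 libraries the edgeR adjusted p was 0.155 for contig 12551 and 0.0824 for contig 854. Without pruinosa plant 3 the edgeR adjusted p was 0.0524 and 0.0514. That fit rests on the libraries of the choice, so nothing is read from it.

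**Figure D3:**
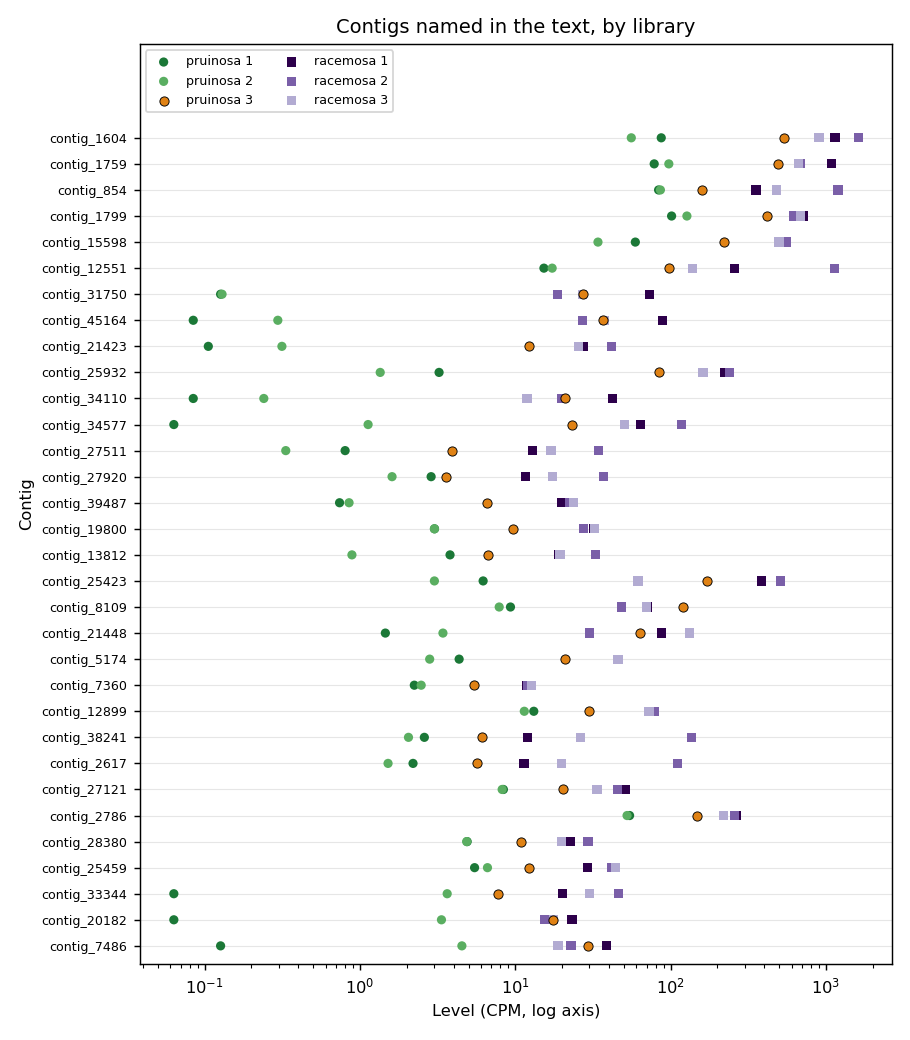
Level of the 32 chosen contigs named in the text in each library (CPM, log axis; circles for G. pruinosa, squares for G. racemosa); 0 counts are drawn at the level of 3 counts. Pruinosa 1 and 2 lie left of all G. racemosa squares in every row, as the choice requires, while pruinosa 3 (orange) lies among the squares for contig_31750 and right of them for contig_8109.

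Some contigs were nearly absent from pruinosa plants 1 and 2. Gpru_v1_contig_31750, with the largest ratio (144), had 6 counts in pruinosa plant 1 and 7 in plant 2, or 0.127 and 0.129 CPM. The G. racemosa plants had 73.2, 18.7 and 27.1 CPM of it, and pruinosa plant 3 had 27.4 CPM. Thus the plants called pruinosa 1 and 2 had a trace of this contig, whereas pruinosa plant 3 was above racemosa plants 2 and 3. In Gpru_v1_contig_45164 the counts in pruinosa plants 1 and 2 were 4 and 16 (0.0844 and 0.296 CPM), with 36.5 CPM in pruinosa plant 3 and 88.4, 27.2 and 37.5 CPM in G. racemosa. Gpru_v1_contig_34110 had 4 and 13 counts (0.0844 and 0.240 CPM) in those plants, 20.9 CPM in pruinosa plant 3 and 42.1, 19.9 and 11.9 CPM in G. racemosa. In these 3 contigs the species overlapped once pruinosa plant 3 was counted.

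The other 3 of the 6 contigs with the largest ratios kept pruinosa plant 3 below every G. racemosa plant. Gpru_v1_contig_21423 had 0.106, 0.314 and 12.2 CPM in the G. pruinosa plants and 27.4, 41.7 and 25.5 CPM in G. racemosa. Gpru_v1_contig_25932 was the most abundant of the 6, with 221, 239 and 162 CPM in G. racemosa against 3.23, 1.35 and 84.0 CPM in G. pruinosa. Gpru_v1_contig_34577 had 0 counts in pruinosa plant 1, 1.13 CPM in plant 2 and 23.3 CPM in plant 3, with 63.9, 118 and 50.6 CPM in G. racemosa. Without pruinosa plant 3, that is in the 5 libraries by which they were chosen, log2 fold changes of these 6 contigs ran from -8.29 (Gpru_v1_contig_31750) to -6.53 (Gpru_v1_contig_25932), with edgeR adjusted p from 0.0110 to 0.0448. These values restate the choice and are no independent evidence. With all 6 libraries they ran from -3.30 to -1.80, with edgeR adjusted p from 0.326 to 0.595. The lowest count of any eligible contig in pruinosa plant 2 was 7, so none had 0 counts in both pruinosa plants 1 and 2. Since the assembly was that of G. pruinosa, transcripts found only in G. racemosa were not measured.

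Within G. racemosa the 207 contigs varied more between plants than the other eligible contigs did. The highest G. racemosa plant was 1.74 times the lowest in the median of the 207 contigs and 1.45 times in the median of the 10149 others. A range under 1.5 times was found for 61 of the 207 (29.5%) and for 55.4% of the others, and a range of 4 times or more for 13 (6.28%) and for 1.498%. The rule set a lower limit on the lowest plant and none on the highest. Racemosa plant 2 was the highest plant in 101 of the 207 contigs (48.8%), compared with 23.7% of the others. It was at least 2 times above both other plants in 18 contigs (8.70%), racemosa plant 1 in 6 (2.90%) and racemosa plant 3 in 1 (0.483%). Among the other eligible contigs the shares were 1.30% for racemosa plant 2, 1.52% for plant 1 and 0.621% for plant 3. With 1 library per plant these differences between plants could not be tested.

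The steadiest was Gpru_v1_contig_5174, with 46.1, 46.2 and 45.7 CPM in G. racemosa and 4.35, 2.81 and 20.8 CPM in G. pruinosa. Gpru_v1_contig_7360 had 11.9, 12.0 and 12.7 CPM in G. racemosa and 2.24, 2.48 and 5.46 CPM in G. pruinosa. Gpru_v1_contig_12899 had 76.4, 79.0 and 72.6 CPM in G. racemosa and 13.1, 11.4 and 29.7 CPM in G. pruinosa. In these 3 the G. racemosa plants differed by less than 1.1 times, and pruinosa plant 3 was between the groups each time. At the other end, Gpru_v1_contig_38241 had 136 CPM in racemosa plant 2 and 11.9 and 26.3 CPM in plants 1 and 3, with 2.596, 2.05 and 6.13 CPM in G. pruinosa. Gpru_v1_contig_2617 had 111 CPM in racemosa plant 2 and 11.4 and 19.9 CPM in plants 1 and 3, with 2.19, 1.52 and 5.63 CPM in G. pruinosa. Both were thus high in racemosa plant 2. With all 6 libraries their log2 fold changes were -4.12 and -4.03 (edgeR adjusted p = 0.109 and 0.116). Without pruinosa plant 3 they were -4.79 and -4.81 (edgeR adjusted p = 0.0723 and 0.0702), in a fit on the libraries of the choice.

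Pruinosa plants 1 and 2 were within 2 times of each other in 127 of the 207 contigs (61.4%), against 84.5% of the other eligible contigs, with levels under 3 counts set to 3 counts. Plant 2 was at least 4 times above plant 1 in 23 contigs (11.1%), and plant 1 at least 4 times above plant 2 in 2 (0.966%). Among the other eligible contigs the shares were 2.84% and 0.503%, so the lean towards plant 2 was found there too. The largest gap was that of Gpru_v1_contig_33344, with 0 counts in plant 1 and 197 counts (3.64 CPM) in plant 2. Pruinosa plant 3 had 7.75 CPM of it and the G. racemosa plants 20.2, 46.1 and 29.999 CPM. Gpru_v1_contig_20182 had 2 counts in pruinosa plant 1 and 3.35 CPM in plant 2, with 17.4 CPM in plant 3 and 23.2, 15.3 and 17.6 CPM in G. racemosa. Gpru_v1_contig_7486 had 6 counts in plant 1, 4.53 CPM in plant 2 and 29.3 CPM in plant 3, with 38.8, 22.8 and 18.8 CPM in G. racemosa. The G. pruinosa plants spanned a wider range than the G. racemosa plants in all 3 contigs. These contigs were picked for the gap between pruinosa plants 1 and 2, so this restates the choice.

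The values went on across the limit of 4 times without a step. Just inside, the ratio was 4.01 for Gpru_v1_contig_27121, 4.01 for Gpru_v1_contig_2786 and 4.03 for Gpru_v1_contig_28380. Just outside, it was 3.99 for Gpru_v1_contig_15410, 3.96 for Gpru_v1_contig_26684 and 3.95 for Gpru_v1_contig_1290. Gpru_v1_contig_2786 had 264, 257 and 218 CPM in G. racemosa and 54.4, 52.4 and 147 CPM in G. pruinosa. Gpru_v1_contig_1290, outside, had 426, 299 and 271 CPM in G. racemosa and 67.6, 68.6 and 217 CPM in G. pruinosa. A further 519 eligible contigs had a ratio of at least 2 and under 4, so the 207 are the tail of a continuous distribution.

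Pruinosa plant 3, whose level the ratio did not use, was below all 3 G. racemosa plants in 180 of the 207 contigs (87.0%). The same held for 35.3% of all eligible contigs. All 3 G. pruinosa plants were below all G. racemosa plants in these 180 contigs and in 20.8% of the eligible ones. The rule put pruinosa plants 1 and 2 below all G. racemosa plants in the 207, but not in the other eligible contigs. The 20.8% is therefore not a like background for the 180. The lowest G. racemosa level is also part of both the rule and these counts, so the shares are given without a test. By ratio, the share rose from 17.6% of contigs with a ratio under 0.5 and 24.3% at 0.5 to 1 to 53.0% at 1 to 2 and 80.0% at 2 to 4. It was 87.8% at 4 to 8, 85.4% at 8 to 16 and 85.2% at 16 or more. Beyond a ratio of 4 the share therefore did not rise further.

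**Figure D4:**
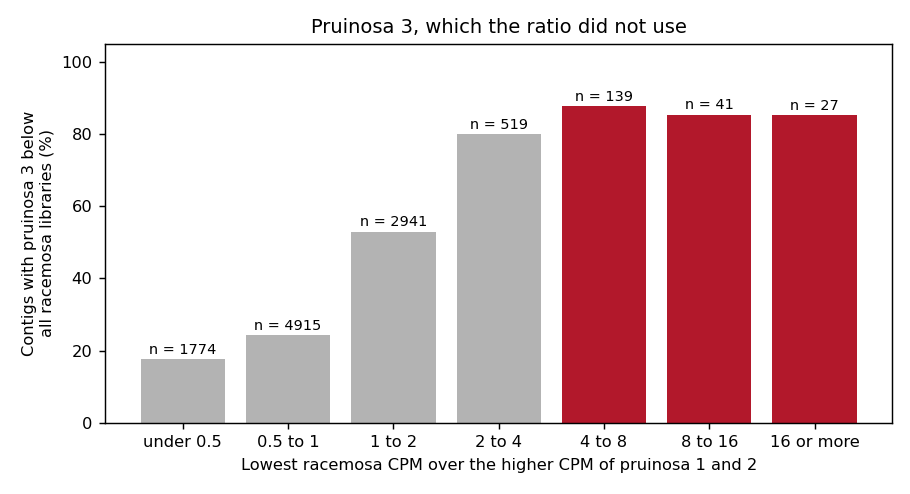
Share of eligible contigs in which pruinosa 3 lay below all 3 G. racemosa libraries (percent), by the ratio of the lowest G. racemosa level to the higher level of pruinosa 1 and 2. Red bars are the 207 chosen contigs, where the share lies between 85.2% and 87.8%; grey bars are the other eligible contigs, and n is the number of contigs.

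The gap was smaller in pruinosa plant 3 than in the other plants of its species. Its level was above both pruinosa plants 1 and 2 in all 207 contigs, against 47.1% of the other eligible contigs and 98.5% of those with a ratio of 2 to 4. In the median it was 4.08 times the higher of these plants and 0.617 of the lowest G. racemosa plant. In 57 contigs it was at least 2 times below the lowest G. racemosa plant, and in 0 contigs at least 4 times. Both the 207 and the 0 follow from the rule and from the lowest ratio of pruinosa plant 3 to racemosa plant 1. That ratio was 0.296 in the 207, whereas the rule kept pruinosa plants 1 and 2 at least 4 times below racemosa plant 1. The lowest values relative to G. racemosa were those of Gpru_v1_contig_27511, with 3.89 CPM in pruinosa plant 3 against 12.9, 34.1 and 17.0 CPM in G. racemosa, a ratio of 0.302 to the lowest plant. The next were Gpru_v1_contig_27920 (0.310), Gpru_v1_contig_39487 (0.330), Gpru_v1_contig_19800 (0.353) and Gpru_v1_contig_13812 (0.353). In Gpru_v1_contig_27920 the 3 G. pruinosa plants were close to each other, with 2.87, 1.61 and 3.59 CPM against 11.6, 36.9 and 17.3 CPM in G. racemosa.

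In 27 contigs pruinosa plant 3 reached or passed the lowest G. racemosa plant. Gpru_v1_contig_25423 had 171 CPM in pruinosa plant 3, 6.20 and 3.01 CPM in plants 1 and 2, and 385, 513 and 61.6 CPM in G. racemosa. Here racemosa plant 3 was the one far below the others. Gpru_v1_contig_21448 had 63.4 CPM in pruinosa plant 3, 1.46 and 3.42 CPM in plants 1 and 2, and 87.0, 30.1 and 133 CPM in G. racemosa. Gpru_v1_contig_8109 differed from both, since its 120 CPM in pruinosa plant 3 was above every G. racemosa plant (71.3, 48.3 and 69.6 CPM), with 9.31 and 7.87 CPM in pruinosa plants 1 and 2. Pruinosa plant 3 was above racemosa plant 1 in 4 of the 207 contigs. It was below it in 203 (98.1%), against 68.4% of the other eligible contigs.

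The values of pruinosa plant 3 followed those of racemosa plant 1. Across the 207 contigs, Spearman's rho between these libraries was 0.96, against 0.74 and 0.84 for pruinosa plant 3 with racemosa plants 2 and 3 and 0.69 and 0.75 with pruinosa plants 1 and 2. The order was the same over the 10149 other eligible contigs, with rho of 0.90 for racemosa plant 1 and 0.81 and 0.87 for racemosa plants 2 and 3. For pruinosa plants 1 and 2 it was 0.78 and 0.86 there, so the values lay closer together than in the 207. These are correlations across contigs, which are not independent replicates, and describe the libraries only. Between the G. racemosa plants themselves rho lay between 0.78 and 0.85 over the 207. Over the other eligible contigs it lay between 0.88 and 0.90, so the 0.90 of pruinosa plant 3 with racemosa plant 1 did not stand out there. The ratio of pruinosa plant 3 to racemosa plant 1 had a median of 0.483 with quartiles of 0.419 and 0.560, and lay between 0.3 and 0.7 in 188 contigs. For racemosa plants 2 and 3 the ratio lay in that range in 110 and 118 contigs. The range is centred near the median for racemosa plant 1, which favours that plant. Over the other eligible contigs the ratio to racemosa plant 1 had a median of 0.873, with quartiles of 0.721 and 1.06.

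Contigs in which racemosa plant 1 differed from the other G. racemosa plants showed the same. In the 6 contigs where racemosa plant 1 was at least 2 times above both others, pruinosa plant 3 stood at 0.296 to 0.630 of racemosa plant 1, but at 1.05 to 1.73 of the mean of the others. In the 7 contigs where racemosa plant 1 was at least 2 times below both, pruinosa plant 3 stood at 0.376 to 0.586 of racemosa plant 1 and at only 0.0755 to 0.253 of the mean of the others. So in these contigs pruinosa plant 3 was high where racemosa plant 1 was high and low where it was low. The other eligible contigs leaned the same way in the median. With a high racemosa plant 1 (154 contigs) the medians were 0.581 of that plant and 1.73 of the mean of the others. With a low racemosa plant 1 (93 contigs) they were 0.968 and 0.344. Ratios to racemosa plant 1 ran up to 10.7 and 8.32 there, so exceptions were wide. In the 18 contigs with a high racemosa plant 2, the median ratio to racemosa plant 1 was 0.459 and that to racemosa plant 2 was 0.125.

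**Figure D5:**
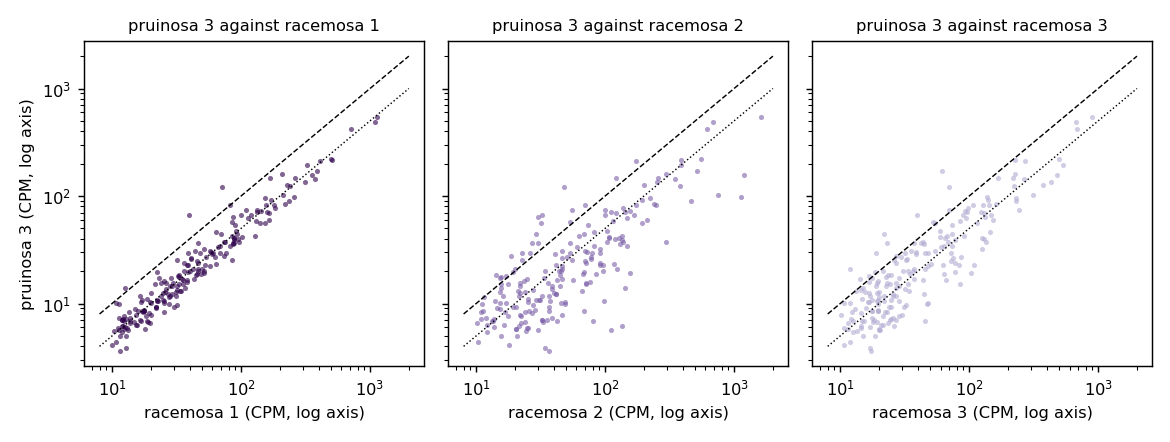
Level of the 207 contigs in pruinosa 3 against each G. racemosa library (CPM, log axes); the dashed line marks equal levels and the dotted line a ratio of 0.5. The points form a narrow band along the dotted line against racemosa 1 (rho 0.96) and scatter more widely against racemosa 2 and 3 (0.74 and 0.84).

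The deposited counts of these libraries were close before any scaling. The library total of pruinosa plant 3 was 2.25 times that of racemosa plant 1, yet over the 207 contigs the ratio of their counts had a median of 1.09, with quartiles of 0.942 and 1.26. It lay between 0.8 and 1.2 in 134 contigs (64.7%), against 6.32% of the other eligible contigs, where its median was 1.96. Among the closest of the named contigs, Gpru_v1_contig_25423 had 9112 counts in pruinosa plant 3 and 9108 in racemosa plant 1. Gpru_v1_contig_854 had 8409 and 8380, and Gpru_v1_contig_21423 had 647 and 648. Other named contigs differed more, with 6398 and 1688 counts for Gpru_v1_contig_8109. Gpru_v1_contig_1799 had 22229 and 16901, and Gpru_v1_contig_27511 had 207 and 305. In 73 of the 207 contigs the counts were equal within counting error (exact binomial test of an even split of the reads, two-sided, at 0.05), compared with 8 and 15 for pruinosa plant 3 with racemosa plants 2 and 3. For pruinosa plant 1 with pruinosa plant 2 it was 50, and no such count was at hand for the other eligible contigs. This test compares 2 libraries and not the species. It passes more easily at low counts, so passing it does not show equal levels. It also takes no account of library totals, which were larger for racemosa plants 2 and 3 than for plant 1. The 73 is therefore not read as a trait of the 207. In 78 of the 207 contigs the count of pruinosa plant 3 was below that of racemosa plant 1, down to a ratio of 0.665; among the other eligible contigs the lowest ratio of counts was 0.621. In the 24 contigs under 1 CPM in pruinosa plants 1 and 2, the count ratio had a median of 0.950. The source of this likeness, shared reads included, was not tested.

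All 207 contigs passed the filter on low counts in the test across all contigs, and their log2 fold changes were below 0, as the choice favours. With all 6 libraries the median was -2.23, against 0.10 over all 43447 contigs tested. Only 1 of the 207 passed an adjusted p of 0.05 (edgeR quasi-likelihood test, Benjamini-Hochberg adjustment over all contigs), where 0.0207% of all tested contigs were called lower in G. pruinosa (9 contigs). DESeq2 on the same 6 libraries called 110 of the 207 lower, and 1299 of all contigs. The rule used this contrast, so nothing is read from these counts. The contig called by edgeR was Gpru_v1_contig_25459, with 5.47, 6.62 and 12.2 CPM in G. pruinosa (8.09 ± 3.60, SD, n = 3 plants) and 29.1, 41.8 and 44.3 CPM in the G. racemosa plants (mean 38.4 ± 8.14). The fitted log2 fold change was -2.28 ± 0.39 (standard error; edgeR adjusted p = 0.0490), and all 3 G. pruinosa plants were below all G. racemosa plants. The call held in 6 of 15 alternative fits, whose adjusted p ran from 5.19e-05 to 0.227.

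Without pruinosa plant 3, 189 of the 207 (91.3%) were called lower, and 1.71% of all 46601 contigs tested were (795 contigs). The 189 made up 23.8% of these. The fit rests on the same 5 libraries as the rule, so these calls, and the values of single contigs without pruinosa plant 3, restate the choice, and nothing is read from them. The median log2 fold change of the 207 was then -3.63, with a range from -8.29 to -2.27. In the 18 contigs that were not called, the median range between pruinosa plants 1 and 2 was 11.6 times, against 1.60 times in the 189. The median range among the G. racemosa plants was 1.98 times, against 1.70 times. Not all 18 had a wide gap between pruinosa plants 1 and 2: Gpru_v1_contig_854 was not called, with 83.6 and 85.9 CPM there. Leaving out racemosa plant 1, 2 or 3 or pruinosa plant 1 or 2 instead gave 0 lower calls over all contigs tested. Among the 207 the count was thus also 0 each time. At an unadjusted edgeR p under 0.05, 102 to 127 of the 207 and 1599 to 2498 of all contigs were lower. Without both pruinosa plant 3 and racemosa plant 1 there were also 0 lower calls (2 against 2 plants). Here 204 of the 207, and 3930 of all 45790 contigs, were lower at an unadjusted edgeR p under 0.05. The rule used this contrast, so nothing is read from these counts.

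The mirrored rule was applied for comparison, with at least 10 CPM in pruinosa plants 1 and 2 and the lower of these at least 4 times the highest G. racemosa plant. It found 184 of 10357 contigs (1.78%), a share close to the 1.999% found in the direction described here, although it asked for a minimum in 2 plants and not in 3. The low side of the mirrored contigs lay deeper. In 62 of them (33.7%) all 3 G. racemosa plants were under 1 CPM, whereas 24 of the 207 (11.6%) were under 1 CPM in both pruinosa plants 1 and 2. Pruinosa plant 3 was below both other G. pruinosa plants in 144 of the 184 (78.3%), and its median ratio to the lower one was 0.481 over the 184. It was above the highest G. racemosa plant in 163 (88.6%). The mirrored rule asked for high levels in pruinosa plants 1 and 2 only, which favours a lower plant 3. As both sets were chosen on these libraries and counted on contigs of one species, these shares are a description.

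The contig numbers of the group were high, with a median of 19788 and quartiles of 12789 and 29453.5, against a median of 7466 for the other eligible contigs and 7463.5 for the mirrored ones. Over all contigs the number fell as the level rose, most closely in pruinosa plant 2 (Spearman's rho -0.82, against -0.69 to -0.73 in the other libraries). Beside other contigs of the same level in pruinosa plants 1 and 2 the numbers differed less, and not in one direction. At a mean of 3 to 10 CPM the median number was 17272 for the 66 contigs of the group and 17731.5 for the others, and at 1 to 3 CPM it was 25933 for 66 contigs and 26229.5 for the others. Under 1 CPM it was lower in the group (34237 for 34 contigs, against 40560). From 10 to 30 CPM it was higher (13232.5 for 30 contigs, against 11259), and at 30 CPM or more it was 5116 for 11 contigs and 5001.5 for the others. Another of the group stood at the next number for 4 of the 207. No share for other sets of contigs was at hand, so nothing is read from this count.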

How the data were processed

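The deposited files hold the authors' raw read counts per contig, 1 file per library, per the file headers, and the values were whole numbers. Per the series' design text, paired-end Illumina reads of both species were counted on contigs assembled de novo from G. pruinosa. Per the labels, RNA was polyadenylated and libraries were stranded. The assembler, mapper, counter, strand setting and handling of multiply matching reads were not given in the sources used here. Reads of G. racemosa without a match in the G. pruinosa assembly are not counted, and reads shared by close copies may be divided between contigs.

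CPM values use plain library totals. The species were compared in edgeR 4.0.16 (R 4.3.3) with TMM scaling, filterByExpr (minimum count 10), glmQLFit and glmQLFTest, species as the only term, and Benjamini-Hochberg adjustment. Standard errors were obtained as |log2 fold change| over the root of the F statistic. The fit was tested on simulated data. DESeq2 1.42.0 and limma 3.58.1 (voom) were alternatives. The fit without both pruinosa plant 3 and racemosa plant 1, and the raw count ratios, were added after seeing the data. Members, lists and tests were chosen with earlier results of these data known.

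Named contigs are, among the 207, the 6 highest in G. racemosa, the 6 with the largest ratio, the 5 lowest and 3 highest in pruinosa plant 3 relative to the lowest G. racemosa plant, the 3 steadiest and 3 most variable in G. racemosa, the 3 with the largest gap between pruinosa plants 1 and 2, those called with all 6 libraries, and 3 on each side of the limit. No gene lists were used, because contigs are not paired with gene names.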

Additional observations from a re-analysis of the deposited data

How the results depend on the processing

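The number of chosen contigs, 207, was 726 and 68 with a ratio of 2 and 8, 123 with a minimum of 20 CPM, and 0 with pruinosa 3 in the ratio; it stayed within 1.5 times under 4 other settings. Leaving out 1 library gave from 271 to 571 contigs, the highest without pruinosa 2, since fewer libraries then had to meet the rule. The median log2 ratio, 2.54, was 1.51 and 3.81 with a ratio of 2 and 8 and between 2.54 and 2.88 without 1 library. The share with pruinosa 3 below all G. racemosa libraries ran from 73.9% (without pruinosa 2) to 91.5% (without racemosa 2). In the test across all contigs (9 lower, 483 higher, 1 of the 207 lower), the counts in the same order were 0, 356 and 0 without a filter, and 0, 26 and 0 where each library had to have 10 counts. They were 1299, 2857 and 110 with DESeq2 and 11, 387 and 2 with limma-voom; the cause was not tested. Under a replicate block they were 0, 16 and 0; same-numbered plants had deviations correlated at -0.25, 0.05 and -0.23, which gives no sign that the numbers pair the plants, and the labels do not pair them. Without 1 library the lower calls ran from 0 to 795, the higher from 0 to 1326 and those among the 207 from 0 to 189, in each case highest without pruinosa 3. Without both pruinosa 3 and racemosa 1 all 3 counts were 0, with 3930 lower and 5862 higher contigs at an unadjusted edgeR p under 0.05. No named contig (32 in all) changed direction in an alternative fit that tested it (15 fits for 24 of them, and 14 for the 8 that did not pass the filter of 10 counts in each library), except that the log2 fold change of Gpru_v1_contig_8109 ran from -2.91 to 0.0545 without 1 library and was above 0 without pruinosa 2. Racemosa 1 was the shallowest library, and 3 counts correspond to 0.127 CPM there.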
